A study of Mus musculus with 6 samples.

Results

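The genes described here encode the coagulation and complement proteins that the liver makes for the plasma. A list of 37 gene symbols was drawn up from what their products do, 19 for coagulation and fibrinolysis and 18 for complement. Picking a row for each symbol used no comparison between the conditions. The list itself was chosen with earlier results of these data known. For each symbol the transcript cluster with the highest mean over the arrays stood for the gene, among clusters whose level was alike in both deposited tables. Of the 37, 36 were measured among the 21531 genes tested. Klkb1, which encodes plasma kallikrein, had no row under that symbol in the tables used and was not analysed here.

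Livers of wild-type mice aged 12 to 14 weeks were compared in the fasted state (Fasted) and the refed state (Refed). Each condition had 9 mice, whose RNA was combined into 3 pools of 3 mice, and each pool was hybridised to a single-colour Affymetrix Mouse Gene 1.0 ST array, which gives a signal for each transcript cluster from a set of short probes. The labels do not give the strain, the sex or how long the fast and refeeding lasted. Values below are RMA (robust multi-array average) signals on the log2 scale, as mean ± SD over 3 pools, and every change is Fasted minus Refed on that scale. A pool hides the spread among its own mice, and the number of arrays limits the precision.

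Hepatocytes make most clotting factors, their plasma inhibitors and most soluble complement proteins, and release them as inactive precursors. In coagulation a chain of proteases ends with thrombin, which turns fibrinogen into fibrin, and inhibitors and plasmin hold the clot in check. In complement the classical, lectin and alternative pathways meet at the cleavage of C3, after which C5 to C9 assemble into a pore in the target membrane. Of 11 hepatocyte markers, among them albumin and apolipoproteins, 0 changed by limma, 1 had an unadjusted p under 0.05, and the median change was 0.017. That 1 was Hnf4a (change -0.25), with every Fasted value below every Refed value. Over all genes 3.02% changed by limma and 14.1% had an unadjusted p under 0.05. Most of these markers averaged above 13 (Alb at 14.1 in both conditions), where the highest values of the arrays were 14.22 to 14.34. Whether high signals narrowed their differences was not tested, so the counts cannot decide whether hepatocyte identity was the same in both conditions.

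Both members that passed the test below, C6 and C8b, belong to the pore, so the DNA before the starts of its genes is shown. RefSeq held a window of 250 bases before to 50 bases after the start for 28 of the 36 measured members (build GRCm38.p6). The windows below are those of the 5 pore genes with lower signals on every Fasted array than on any Refed array. They lie at chr2:35061363-35061662 (Hc, minus strand), chr15:4726960-4727259 (C6, plus strand), chr4:104876349-104876648 (C8a, minus strand), chr4:104766067-104766366 (C8b, plus strand) and chr15:6445096-6445395 (C9, plus strand). Each is written 5′ to 3′ on the gene's strand, with capitals where a motif was found.
Hc: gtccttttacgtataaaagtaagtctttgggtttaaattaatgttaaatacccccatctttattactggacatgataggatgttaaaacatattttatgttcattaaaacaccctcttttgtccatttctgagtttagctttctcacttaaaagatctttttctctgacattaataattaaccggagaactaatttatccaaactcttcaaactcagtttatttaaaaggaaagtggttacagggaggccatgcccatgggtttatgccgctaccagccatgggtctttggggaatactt
C6: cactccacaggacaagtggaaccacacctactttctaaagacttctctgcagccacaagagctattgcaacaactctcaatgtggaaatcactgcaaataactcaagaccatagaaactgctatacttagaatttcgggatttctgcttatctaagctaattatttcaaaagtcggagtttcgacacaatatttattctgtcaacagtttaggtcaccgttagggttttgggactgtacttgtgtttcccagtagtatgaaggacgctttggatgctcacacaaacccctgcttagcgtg
C8a: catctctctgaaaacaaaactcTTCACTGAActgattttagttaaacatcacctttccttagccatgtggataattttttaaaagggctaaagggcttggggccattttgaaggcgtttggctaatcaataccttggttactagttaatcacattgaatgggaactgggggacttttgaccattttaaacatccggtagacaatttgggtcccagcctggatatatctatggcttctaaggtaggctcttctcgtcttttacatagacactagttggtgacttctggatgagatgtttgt
C8b: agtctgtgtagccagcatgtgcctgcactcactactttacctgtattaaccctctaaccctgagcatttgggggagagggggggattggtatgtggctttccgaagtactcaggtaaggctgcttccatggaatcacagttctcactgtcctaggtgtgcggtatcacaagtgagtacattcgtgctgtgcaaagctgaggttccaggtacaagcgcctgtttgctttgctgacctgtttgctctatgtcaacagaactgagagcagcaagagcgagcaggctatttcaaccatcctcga
C9: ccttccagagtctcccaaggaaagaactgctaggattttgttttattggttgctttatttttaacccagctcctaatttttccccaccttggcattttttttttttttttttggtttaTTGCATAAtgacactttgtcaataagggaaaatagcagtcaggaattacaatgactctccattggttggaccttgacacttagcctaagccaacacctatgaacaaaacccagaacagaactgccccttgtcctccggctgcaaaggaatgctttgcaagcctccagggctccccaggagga

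A total of 5 short motifs linked to liver factors were searched on both strands, after the windows had been looked at with a wider set of letters. The STAT motif TTCNNNGAA was in the C8a window, 228 bases before the start, and in 8 of the 28 member windows (8.3% of all 32851 windows), and the C/EBP motif TTNNGCAA was in the C9 window, 132 bases before the start on the opposite strand, and in 8 of the 28 (10.8% of all windows). The FOXA motif TNTTTAC was in 6 of the 28 (12.4% of all windows), the HNF4 motif GGNCAAAG in 3 (5.62%) and the D-box TTATGTAA in 0 (0.938%), none of them in the windows shown. In the windows of Hc, C6 and C8b none of the 5 motifs was found in these spellings. Looser spellings can occur there: the C8b window holds TGTTTGC, which the FOXA spelling leaves out. Because the spellings followed a look at the windows, their absence is no result about these genes.

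For most of these genes no difference between Fasted and Refed liver passed the test. Of the 36 measured members 2 changed, C6 and C8b, both lower in Fasted and both part of the pore (limma, adjusted p under 0.05 by Benjamini-Hochberg over all genes). Among all 21531 genes 3.02% changed, 1.4% higher and 1.62% lower, against 5.56% of the members. All 36 members lay above the highest array median on every array, while the 21531 include dim genes. With the genes below the median signal left out, 887 genes changed instead of 651, and the members' count stayed at 2. The 3.02% is thus not a share over genes as bright as the members. None of the members was higher by limma over all genes, and 6 had an unadjusted p under 0.05 (16.7%, against 14.1% of all genes): C6, C8b, C2 and Hc with lower and F11 and Mbl2 with higher means in Fasted. In 11 members the 3 values of one condition did not overlap those of the other, against 18.8% of all genes. Of these, 8 lay below in Fasted (10.7% of all genes) and 3 above (8.16% of all genes). The median size of a change was 0.084 for the members and 0.086 for all genes. In liver tissue, fewer cells of a type and less RNA per cell cannot be told apart.

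**Figure D1:**
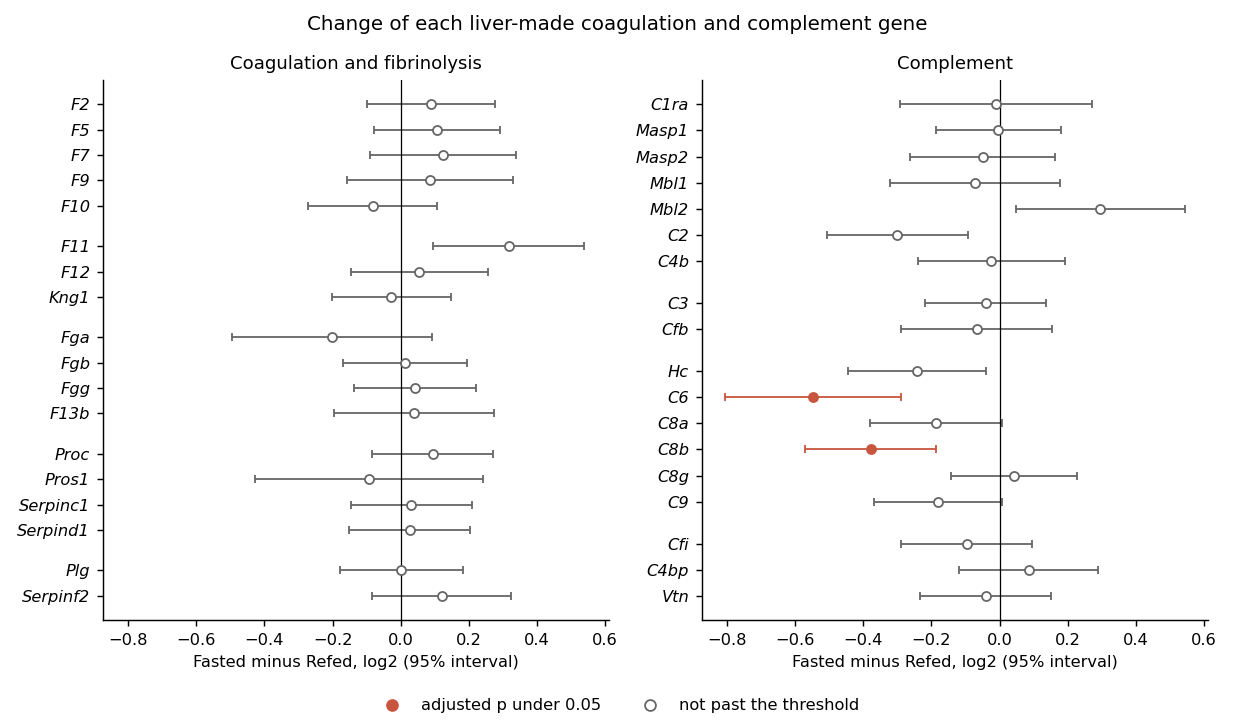
Change of each of the 36 measured members between Fasted and Refed liver, as Fasted minus Refed on the log2 scale (x axis), with the 95% interval from limma, and genes grouped by role (y axis). Filled points mark C6 and C8b, which passed an adjusted p of 0.05, and the other 34 intervals are drawn with open points.

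The lowest changes were those of C6 and C8b. C6, which joins C5b to start the pore and which in mouse liver is also known from Kupffer cells, is encoded on chromosome 15 (4677212 to 4764892, plus strand, NCBIM37). Its signal was 11.59, 11.81 and 11.44 on the Fasted arrays, against 12.09, 12.05 and 12.35 on the Refed arrays. Every Fasted pool lay below every Refed pool, and the means differed by more than the range within either group. C6 averaged 11.61 ± 0.19 in Fasted and 12.16 ± 0.16 in Refed pools, so it was 1.46-fold lower (change -0.55, 95% interval -0.81 to -0.29, limma adjusted p = 0.0307). Leaving out Fasted 1, Fasted 3, Refed 1 or Refed 3 ended the call (adjusted p from 0.0621 to 0.127), and the change then lay between -0.46 and -0.58.

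C8b encodes the beta chain of C8, a part of the pore, on chromosome 4 (104438922 to 104477153, plus strand, NCBIM37). Its signal was 12.51, 12.56 and 12.44 in Fasted, against 12.81, 12.86 and 12.97 in Refed pools. The groups did not overlap, and the spread within each was small. The means were 12.50 ± 0.058 in Fasted and 12.88 ± 0.081 in Refed pools, so C8b was 1.3-fold lower (change -0.38, -0.57 to -0.19, limma adjusted p = 0.043). The call was lost whichever array was left out, with adjusted p from 0.0777 to 0.178, while the change stayed between -0.41 and -0.33.

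Hc, the mouse gene of C5, whose cleavage product C5b seeds the pore, had signals of 12.49, 12.44 and 12.42 in Fasted and 12.57, 12.68 and 12.82 in Refed pools. It did not pass the test (-0.24, -0.44 to -0.04, limma adjusted p = 0.237). C8a, the alpha chain that inserts into the membrane, stood at 11.87, 11.80 and 11.85 in Fasted and at 11.94, 12.02 and 12.13 in Refed pools (-0.19, -0.38 to 0.006, adjusted p = 0.375). Both genes had all Fasted values below all Refed values, with narrow Fasted and wider Refed groups. C9, whose copies close the ring, had 12.14, 12.21 and 12.10 in Fasted and 12.27, 12.32 and 12.40 in Refed pools, again without overlap (-0.18, -0.37 to 0.008, adjusted p = 0.382). C8g, the lipocalin chain of C8, was the exception. It gave 12.64, 12.53 and 12.61 in Fasted and 12.55, 12.52 and 12.59 in Refed pools, with overlapping groups and an interval of -0.14 to 0.23 around a change of 0.042.

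**Figure D2:**
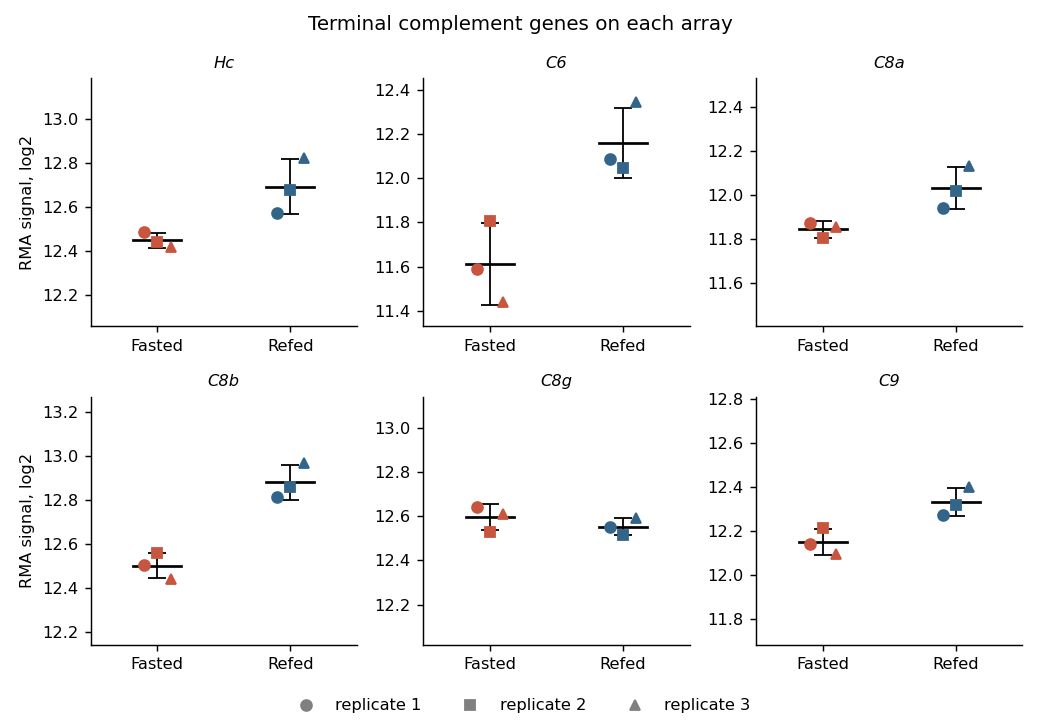
RMA signal on the log2 scale (y axis, the same span in each panel) of the 6 terminal complement genes on the 3 Fasted and 3 Refed arrays. Symbols mark the replicate number, the line is the mean and the bar 1 SD. In Hc, C6, C8a, C8b and C9 every Fasted array lies below every Refed array, and in C8g the groups overlap.

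Over the 6 terminal pathway genes the median change was -0.21, against -0.009 over all genes. In 5 of the 6 all Fasted values lay below all Refed values, as in 10.7% of all genes. C7, the remaining protein of the pore and not on the member list, had a mean of 5.97 in Fasted and 6.05 in Refed liver (-0.071, -0.26 to 0.12, limma adjusted p = 0.846), below the array medians of 6.73 to 6.81. Whether its probes detected the transcript was not tested.

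The 3 chains of C8 are made from separate genes and circulate as a complex. Within each array the C8b signal minus the C8g signal was -0.14, 0.03 and -0.17 in Fasted and 0.26, 0.35 and 0.38 in Refed pools. The difference between the conditions was -0.42 for C8b against C8g, -0.23 for C8a against C8g and -0.19 for C8b against C8a. Because these are differences between probe sets, only their shift between conditions carries meaning. In all 3 pairs the Fasted and Refed values did not overlap, and each had an exact two-sided permutation p of 0.1, the smallest that 3 arrays against 3 can give (0.1 after adjustment over the 3 pairs). The signals of C8b and C8a, which lie next to each other on chromosome 4 on opposite strands, were thus lower in Fasted liver relative to that of C8g, on chromosome 2, on every array, but no p under 0.1 was possible. The 3 pairs are built from the same 3 genes, so they are not independent, and they restate the values of the single genes.

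The 12 complement members outside the terminal pathway had a median change of -0.041, and 0 changed by limma, against 3.02% of all genes. At an unadjusted p under 0.05 there were 2, against 14.1% of all genes. C2, the protease of the classical and lectin C3 convertase, had 10.25, 10.20 and 10.20 in Fasted and 10.41, 10.47 and 10.67 in Refed pools. The Fasted values were tight and all lower (-0.30, -0.51 to -0.09, limma adjusted p = 0.138). Cfb, which supplies the matching protease of the alternative pathway and whose gene lies beside that of C2 on chromosome 17, had 12.21, 12.32 and 12.09 in Fasted and 12.16, 12.24 and 12.43 in Refed pools, overlapping groups. Its change was -0.067 (-0.29 to 0.16), and it was 0.0075 without Refed 3.

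The mannose-binding lectins, which recognise microbial sugars and start the lectin pathway, gave unlike values. Mbl2 had 10.19, 9.91 and 9.94 in Fasted and 9.86, 9.53 and 9.76 in Refed pools, the only complement member with all Fasted values above (0.30, 0.05 to 0.54, limma adjusted p = 0.241). Mbl1 had overlapping groups (10.74 ± 0.10 in Fasted and 10.81 ± 0.21 in Refed liver, -0.073). The proteases that act before C2 in these pathways had changes near 0: Masp1 at -0.005 (-0.19 to 0.18), Masp2 at -0.05 (-0.26 to 0.16) and C1ra at -0.01 (-0.29 to 0.27). C1rb, the near copy of C1ra, had a change of -0.024. C4b, the C4 of the classical convertase, was at -0.025 (-0.24 to 0.19), and its near copy C4a at -0.31 (limma adjusted p = 0.394). The array's annotation classes the probes of C1ra and C4b as unique.

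C3, the hub of the system, stood at 13.78, 13.75 and 13.78 in Fasted and at 13.79, 13.79 and 13.84 in Refed pools. The groups did not overlap, yet the change was only -0.04 (-0.22 to 0.14, limma adjusted p = 0.925). The plasma regulators had changes with intervals on both sides of 0. Cfi, the protease that inactivates C3b and C4b, had -0.097 (-0.29 to 0.096), C4bp, its cofactor for C4b, had 0.086 (-0.12 to 0.29), and Vtn (vitronectin), which keeps the pore from inserting, had -0.041 (-0.23 to 0.15).

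In coagulation and fibrinolysis 0 of 18 measured members changed by limma, against 3.02% of all genes. At an unadjusted p under 0.05 there was 1 (F11), against 14.1% of all genes. The median change of the members was 0.04, with 14 positive and 4 negative. Among the 4 was Fga, whose other transcript cluster had a change of 0.005. F11, the protease that activates factor IX, had 9.84, 9.98 and 9.75 in Fasted and 9.68, 9.43 and 9.51 in Refed pools. All Fasted values were above all Refed values, and the change was the largest in coagulation (0.32, 0.10 to 0.54, limma adjusted p = 0.142, and 0.0777 to 0.411 over the alternatives). The other contact factors were F12, with a change of 0.055 (-0.15 to 0.26), and Kng1 (high-molecular-weight kininogen), with 13.54, 13.54 and 13.54 in Fasted and 13.58, 13.56 and 13.57 in Refed pools. Kng1 was the only coagulation member with all Fasted values below, by a change of -0.028 (-0.20 to 0.15).

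**Figure D3:**
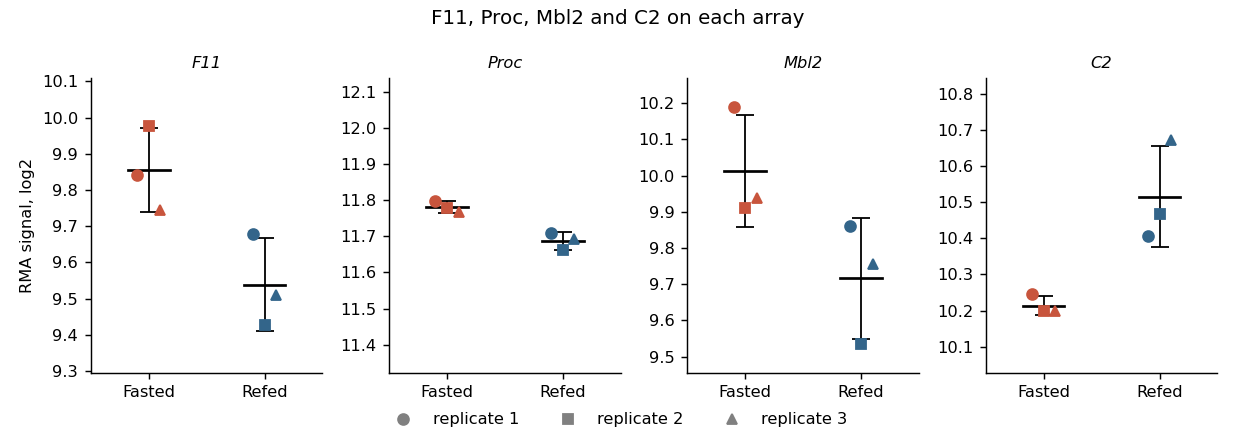
RMA signal on the log2 scale (y axis, the same span in each panel) of F11, Proc, Mbl2 and C2 on the 3 Fasted and 3 Refed arrays, with the mean and 1 SD. The groups do not overlap in any of the 4 genes, and none passed the test (limma adjusted p from 0.138 for C2 to 0.733 for Proc).

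Among the other clotting proteases and their cofactor 0 changed. F2 (prothrombin) had 0.089 (-0.10 to 0.28), F5, the cofactor that speeds thrombin formation, 0.11 (-0.08 to 0.29), F7, which pairs with tissue factor, 0.12 (-0.09 to 0.34), and F9, which is mutated in haemophilia B, 0.086 (-0.16 to 0.33). F10, whose activated form cleaves prothrombin, had -0.082 (-0.27 to 0.11). F7 and F10 follow each other on the same strand of chromosome 8, and their changes had opposite signs within overlapping intervals. The 6 vitamin K-dependent members (F2, F7, F9, F10, Proc and Pros1) had a median of 0.088.

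Fibrinogen is built from the products of Fga, Fgb and Fgg, which lie together on chromosome 3 (82811779 to 82853731, NCBIM37). Fgb had 13.47, 13.51 and 13.47 in Fasted and 13.42, 13.49 and 13.51 in Refed pools (0.013, -0.17 to 0.19), and Fgg had 13.51, 13.58 and 13.53 in Fasted and 13.48, 13.48 and 13.53 in Refed pools (0.041, -0.14 to 0.22). In both genes the groups overlapped. For Fga 2 transcript clusters gave different values. The one with 50 probes had 12.92, 12.86 and 12.92 in Fasted and 12.794, 12.891 and 12.996 in Refed pools, a change of 0.005 (-0.19 to 0.20, limma adjusted p = 0.995). It had been left out because its level differed by 1.253 between the deposited tables. The one that stood in its place has 25 probes at the gene's end and gave 9.68, 9.67 and 9.51 in Fasted against 10.13, 9.56 and 9.79 in Refed pools (-0.20, -0.49 to 0.09, limma adjusted p = 0.603), with Refed 1 far from the other Refed pools. F13b, the carrier chain of the factor that cross-links fibrin, had 0.039 (-0.20 to 0.27).

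Among the anticoagulants, Proc (protein C, which cuts factors V and VIII) had 11.80, 11.78 and 11.77 in Fasted and 11.71, 11.66 and 11.69 in Refed pools. These groups were narrow and apart, by 0.094 (-0.08 to 0.27, limma adjusted p = 0.733). Its cofactor Pros1 had the widest interval of the coagulation members, at 9.25, 9.33 and 8.84 in Fasted and 8.95, 9.30 and 9.46 in Refed pools (-0.094, -0.43 to 0.24). Without Fasted 3 the change of Pros1 was 0.056, and without Refed 3 it was 0.016. Serpinc1 (antithrombin) had 0.031 (-0.15 to 0.21) and Serpind1 (heparin cofactor II) 0.027 (-0.15 to 0.21). In fibrinolysis, Plg, the precursor of plasmin, had 0.002 (-0.18 to 0.18), and Serpinf2, the plasmin inhibitor, had 0.12 (-0.08 to 0.33).

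The precision bounds what these values can show. The 95% interval of a member reached a median of 0.197 on either side of its change, or 1.15-fold. For 22 of 36 members, 12 of coagulation and 10 of complement, the whole interval lay within 0.3 either way (1.23-fold), and for all but C6 it lay within 0.6 (1.52-fold). A total of 7 members (Kng1, Fgb, Fgg, Serpinc1, Plg, C3 and Vtn) averaged above 13, where the highest values of the arrays were 14.22 to 14.34. Their changes had sizes of at most 0.041, against up to 0.55 in the other 29. Whether high signals narrowed the differences was not tested.

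Set side by side, the medians of the systems differed in sign. Complement had 15 of 18 negative changes with a median of -0.059, and coagulation had 4 of 18 with a median of 0.04, while 53% of all genes were negative. The 4 include Fga, whose cluster with 50 probes had a change of 0.005. No test of the difference between the systems was made, since their genes share the same 6 arrays. The median of complement was -0.025 without Refed 3, -0.092 without Fasted 1 and -0.033 with quantile normalization, and that of coagulation was 0.061 with quantile normalization. Averaged over its 18 genes as a deviation from each gene's mean, complement stood at -0.005, -0.051 and -0.097 in Fasted and at 0.016, -0.006 and 0.14 in Refed pools. Refed 3 was set well above the other 5, and the groups overlapped, with Fasted 1 at -0.005 and Refed 2 at -0.006. Coagulation stood at 0.046, 0.056 and -0.041 in Fasted and at -0.002, -0.066 and 0.007 in Refed pools, so that the groups overlapped. The terminal pathway stood at -0.11, -0.091 and -0.17 in Fasted and at 0.057, 0.089 and 0.23 in Refed pools, with no overlap. Without the terminal pathway, complement overlapped too, at 0.048, -0.03 and -0.059 in Fasted and at -0.005, -0.053 and 0.099 in Refed pools.

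Single arrays weighed on many members. The second principal component of all genes (26.8% of the variance) placed Fasted 3 and Refed 2 on one side and the remaining arrays on the other. Fasted 3 was the lowest Fasted array in 22 of 36 members (61.1%, against 32.7% of all genes), and Refed 3 was the highest Refed array in 24 (66.7%, against 28.9%), among them 15 of the 18 complement members. In F9, Fga, F13b, Plg, C1ra, Masp1 and Mbl1, Fasted 3 and Refed 2 were the 2 lowest of all 6 arrays (19.4% of members, against 9.6% of all genes). For Fga this held in the cluster of 25 probes, while in the cluster of 50 probes Refed 1 was the lowest array. For the terminal pathway the median change was -0.16 without Refed 3 and -0.22 without both Fasted 3 and Refed 2, on the same side as with all arrays.

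**Figure D4:**
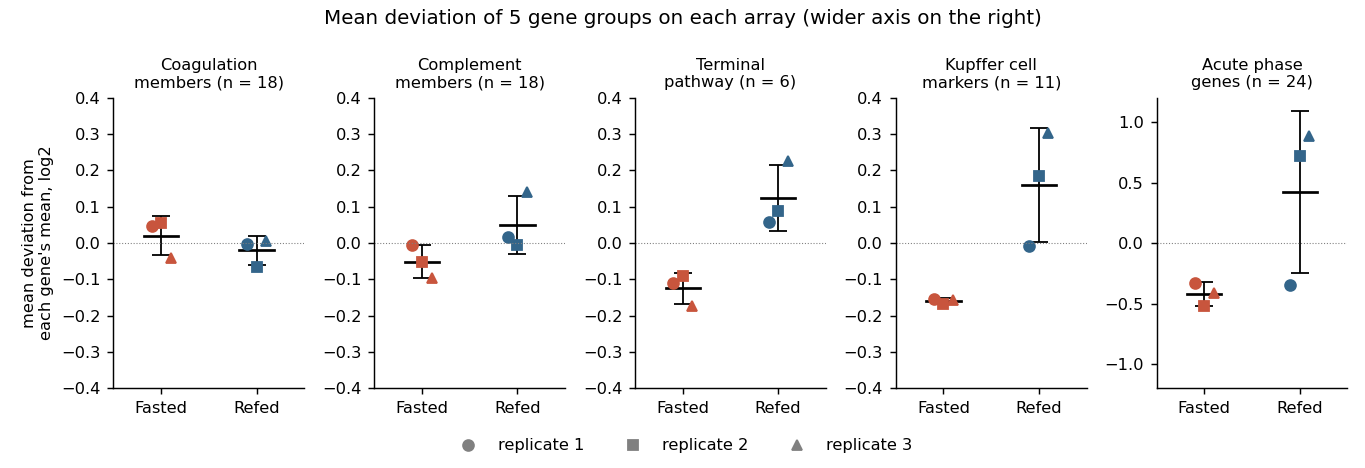
Mean deviation from each gene's mean over the 6 arrays, on the log2 scale (y axis, wider for the acute phase genes), of 5 gene groups on the 3 Fasted and 3 Refed arrays, with the group mean and 1 SD over pools. The terminal pathway and the Kupffer cell markers do not overlap between Fasted and Refed, and the acute phase genes are high on Refed 2 and Refed 3 but not on Refed 1.

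Some complement and fibrinogen genes are known to be induced in the acute phase, the liver's reaction to inflammation, and inducible genes of that kind differed among the Refed pools. Saa1 (serum amyloid A1) had 5.25, 5.51 and 5.13 in Fasted and 5.22, 9.33 and 10.05 in Refed pools, and Saa2 had 7.53, 7.23 and 6.92 in Fasted and 7.02, 12.26 and 12.45 in Refed pools. Refed 1 thus lay within the Fasted range for both, and neither passed the test (limma adjusted p = 0.142 for Saa1 and 0.157 for Saa2). The iron-binding lipocalin Lcn2 had 8.23, 7.55 and 8.04 in Fasted and 8.69, 12.16 and 12.47 in Refed pools, and the orosomucoid Orm2 had 8.67, 8.14 and 8.34 in Fasted and 9.45, 12.25 and 12.16 in Refed pools. Orm1 had 13.05, 12.95 and 13.03 in Fasted and 13.22, 13.41 and 13.56 in Refed pools. Hp (haptoglobin) had 13.11, 12.99 and 13.07 in Fasted and 13.08, 13.41 and 13.56 in Refed pools, and again Refed 1 was the Refed array nearest to Fasted. Over the 24 genes of this list 5 were lower (1.62% of all genes) and 0 higher (1.4%) in Fasted, with a median change of -0.36. The 5 were Lcn2 (-3.17, limma adjusted p = 0.0494), Orm2 (-2.90, 0.0208), Saa4 (-0.42, 0.0294), Orm3 (-1.06, 0.00152) and Steap4 (-0.78, 0.00618). The count was 10 without Refed 1 and 2 without Refed 3 or without any single Fasted array. Of 16 alternatives, 11 ended the call for Lcn2, 8 for Saa4, 7 for Orm2 and 1 for Steap4. For Orm3 it was 0 of 15.

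Among the members with a known acute phase response, Refed 1 was the lowest Refed array for C4b (12.51, against 12.60 and 12.82), Cfb (12.16, against 12.24 and 12.43) and Fgb (13.42, against 13.49 and 13.51), but not for C3 or Fgg. For Fga it was the lowest in the cluster of 50 probes and the highest in the cluster of 25. Refed 1 was the lowest Refed array in 9 of 18 complement members, against 29.2% of all genes. The 9 were C2, C4b, Cfb, Hc, C8a, C8b, C9, Cfi and Vtn. Most of the terminal pathway genes thus had this order, but C6 and C8g did not. For C6 and C8b the Refed 1 values (12.09 and 12.81) were above every Fasted value (at most 11.81 and 12.56), as were those of Orm1, Orm2 and Lcn2, while Saa1 and Saa2 in Refed 1 lay within the Fasted range. The part of the acute phase in the complement values, C6 and C8b included, was not tested.

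Kupffer cells, the macrophages of the liver, express complement genes as well. All 11 measured Kupffer cell and macrophage markers of 12 listed had negative changes (53% of all genes did), with a median of -0.26. Vsig4, a complement receptor of these cells, was lower in Fasted (-0.71, limma adjusted p = 0.00904), and so was C1qb (-0.56, adjusted p = 0.0346), a chain of the C1q recognition protein. The call for Vsig4 was lost without Fasted 1 (adjusted p = 0.0543), and that for C1qb without any single array but Refed 1 (0.0582 to 0.128). The others did not pass, among them Clec4f (-0.099), Timd4 (-0.26) and Cd5l (-0.18), which are most typical of Kupffer cells. Marco, at 6.41 to 6.71 in Fasted and 6.47 to 6.77 in Refed pools, was near or below the array medians. The summed signal of the list lay between 12.13 and 12.17 on the Fasted arrays and between 12.37 and 12.76 on the Refed arrays, on the log2 scale. The mean deviation of the list was -0.15, -0.17 and -0.16 in Fasted and -0.009, 0.18 and 0.30 in Refed pools, without overlap. It was lower in Fasted together with C6, and the part of Kupffer cells in the C6 value was not tested.

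Further genes of both systems were counted from lists of their other receptors, regulators and parts. Over all genes 1.4% were higher and 1.62% lower in Fasted by limma. Of 24 other coagulation and fibrinolysis genes 2 were higher and 0 lower in Fasted, with a median of 0.023. They were F3 (tissue factor, the starter of coagulation), at 7.53, 7.71 and 7.45 in Fasted and 7.06, 7.22 and 6.99 in Refed pools (0.47, limma adjusted p = 0.0307), and Tfpi2, a Kunitz-type protease inhibitor, at 10.10, 9.98 and 9.92 in Fasted and 9.72, 9.43 and 9.48 in Refed pools (0.46, adjusted p = 0.0365). In neither gene did the groups overlap. Both calls were lost without Fasted 1, Fasted 2 or Refed 3, and further without Refed 1 for F3 and without Refed 2 for Tfpi2, with adjusted p of 0.0946 to 0.166. Serpina10, the inhibitor of factor X that works with protein Z, had a mean of 10.38 in Fasted and 10.77 in Refed liver (-0.39, adjusted p = 0.0649), and was chosen for mention after its value was seen.

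Of 32 measured other complement genes of 34 listed, 2 were lower and 0 higher in Fasted, with a median of -0.072. They were Vsig4 and C1qb, which are also in the Kupffer cell list. The count was 0 without Fasted 1, 4 without Refed 1, and 1 without Fasted 2, Refed 2 or Refed 3. Of 7 genes of the vitamin K cycle and of factor V and VIII export 0 changed by limma and 3 had an unadjusted p under 0.05, with a median of -0.098. Among 26 other plasma proteins of hepatocytes 0 changed, also at an unadjusted p under 0.05, and the median was 0.024. Most of these genes averaged above 13, and Alb, Apoa1, Apob and Ttr are also among the hepatocyte markers. Whether high signals narrowed their differences was not tested. The median was 0.04 for the coagulation members and -0.21 for the terminal pathway, and no list was tested against another.

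Markers of other cells were counted in the same way (3.02% of all genes changed, and 14.1% had an unadjusted p under 0.05). Sox9 was the 1 lower gene of 7 cholangiocyte markers (-0.53, limma adjusted p = 0.0141), a call lost without Fasted 1, Fasted 2 or Refed 3. By limma 0 changed of 11 endothelial markers (4 at an unadjusted p under 0.05), 9 stellate cell and fibroblast markers (1), 6 platelet markers (0), 8 neutrophil markers (0), 7 lymphocyte markers (1) and 5 erythroid markers (0). The median change was 0.15 for the endothelial markers, whose cells make von Willebrand factor, and 0.013 for those of platelets, which carry some clotting factors.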

How the data were processed

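Per the labels, RNA of 3 livers was pooled for each of the 6 Affymetrix Mouse Gene 1.0 ST arrays. The authors deposited log2 values that were background-corrected, normalised and summarised by RMA in Affymetrix Expression Console 1.3.1.187, per the submitters' processing notes. A second deposited table gave symbols, positions (NCBIM37) and the authors' mean log2 value of livWTR. Its 12 per-array columns are not tied to the labelled samples and were not used, and neither were its fold changes and p-values of livKOR against livWTR.

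The tables were joined by transcript cluster. Of 24446 clusters with 1 symbol, 558 whose Refed mean differed by over 1 from the livWTR mean were left out, and the brightest cluster stood for each of 21531 genes. Fasted and Refed were compared with limma 3.58.1 (R 4.3.3, lmFit and eBayes, two-sided), with Benjamini-Hochberg adjustment over all genes and a threshold of 0.05. Arrays give no depth, and replicates are pools of separate mice. The fitting script was tested on simulated data. The members, lists and tests were chosen with earlier results of these data known, and lists are given by counts and medians with no test. All members are named, and of other lists every changed gene where 5 or fewer changed, otherwise the 4 with the smallest adjusted p, and 6 acute phase genes by array. Alternatives left out arrays or changed normalization, variance prior, filters, threshold or the replicate term. The labels do not say whether replicate numbers pair the pools, and they were not treated as a pairing in the main fit.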

Additional observations from a re-analysis of the deposited data

How the results depend on the processing

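The 651 changed genes became 413 without Fasted 3 and Refed 2 together, 186 with a variance prior from all rows of the table, 234 at an adjusted p under 0.01 and 1069 under 0.1, and 266 to 616 when one array was left out. The 2 changed members, both lower, became 0 without Fasted 3 and Refed 2 together, with the replicate block, with the variance prior from all rows, with median centring of the arrays and at an adjusted p under 0.01, and 0 to 1 when one array was left out. C6 lost its call in 8 of 16 alternatives (adjusted p 0.00966 to 0.128) and C8b in 10 of 16 (0.00763 to 0.178), always with the same sign. No member was called higher in any alternative. The 15 changed genes of the 6 lists other than cell type markers became 7 without Fasted 3 and Refed 2 together, 2 with the variance prior from all rows, and 4 to 19 when one array was left out. Leaving out arrays also lowers power, and the cause of these changes was not tested.

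With the replicate block 457 genes changed. Deviations of arrays with the same number correlated at 0.069, -0.229 and -0.335, so the number was not treated as a pairing.

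The medians of coagulation, complement and the terminal pathway kept their signs in all 16 alternatives. The change of Fga was 0.0046 with no filter on identifiers, where its other transcript cluster stood for the gene. Of the other members, changes near 0 turned sign. Without Fasted 3 and Refed 2 together F13b was at -0.020, Pros1 at 0.089 and Plg at -0.012. With quantile normalization C1ra was at 0.0073, Masp1 at 0.012 and C4b at 0.013. When one array was left out, Fgb ran from -0.015 to 0.033, F13b from -0.057 to 0.13, Pros1 from -0.24 to 0.056, Plg from -0.022 to 0.015, C1ra from -0.13 to 0.083, Masp1 from -0.032 to 0.022, Masp2 from -0.11 to 0.033, Mbl1 from -0.19 to 0.021, C4b from -0.091 to 0.063, Cfb from -0.13 to 0.0075 and Vtn from -0.073 to 0.0089. F9 ran from 0.0013 to 0.18, F12 from 0.010 to 0.11 and Fga from -0.34 to -0.049, with no turn of sign. Summarised arrays give no signal over background, so dim genes have no known detection limit.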

Other observations

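Among 25 transcription factors and cytokine signalling genes of the liver, 2 were higher (1.4% of all genes) and 4 lower (1.62%) in Fasted by limma. The total of 6 was 2 without Fasted 1 and 3 without Refed 1 or Refed 3. The clock-controlled factor Dbp had 11.09, 10.56 and 11.11 in Fasted and 9.85, 10.06 and 9.84 in Refed pools (1.00, adjusted p = 0.00386), and Ppargc1a, a coactivator of the fasting response, was higher by 0.63 (adjusted p = 0.0151, lost without Fasted 1, Fasted 2, Refed 1 or Refed 3). The estrogen receptor Esr1 had 8.56, 8.31 and 8.46 in Fasted and 9.03, 9.51 and 9.53 in Refed pools (-0.91, adjusted p = 0.0047). Foxa1, a pioneer factor of hepatocytes, had 9.51, 9.77 and 9.60 in Fasted and 10.37, 10.09 and 10.22 in Refed pools (-0.60, adjusted p = 0.0111, lost without Fasted 1). In none of the 4 did the groups overlap. No link between these factors and the coagulation or complement genes was tested.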
